A study of Mus musculus with 2 samples.

Results

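Single-cell gene expression in salivary gland was examined for 10 genes of Notch signalling and arterial specification: the receptors *Notch1* and *Notch4*, the ligands *Dll4*, *Jag1* and *Jag2*, the Notch target *Hey1*, the ephrin ligand *Efnb2*, the transcription factor *Sox17*, and the connexins *Gja4* and *Gja5*. The genes were taken by symbol from a list chosen with earlier results of these data known, and all were kept whatever their values. All 10 had a row among the 50768 genes counted in each library. Their levels were read in endothelial barcodes, defined as barcodes with at least 500 unique molecular identifiers (UMIs, each standing for one captured transcript), at least 300 genes and at least 3 UMIs summed over the endothelial genes *Pecam1*, *Cdh5* and *Egfl7*. The 2 samples were pooled submandibular and sublingual glands of untreated 20-week-old female NOD/ShiLtJ mice, an inbred strain that develops autoimmune inflammation of the salivary glands, and of CD1 mice, an outbred stock, with 1 library per strain. The pools held 4 mice each by the methods and 3 by the sample labels, which name the submandibular gland only and give both the same batch. In both, cells carrying the epithelial antigen EpCAM or the erythroid antigen Ter119 were depleted and dead cells removed before droplet capture. With 1 library per strain no difference between strains has a replicate check, so no p-value is given, and every interval is a 95% interval that covers counting error only. Strain, pool, digestion and library cannot be told apart.

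Notch receptors sit on one cell and are activated by ligands on its neighbour. The cleaved intracellular part of the receptor then enters the nucleus, joins the DNA-binding protein RBPJ and switches on genes such as those of the HEY family. In developing vessels, DLL4 acting on NOTCH1 and NOTCH4, together with SOX17, directs endothelial cells to the arterial fate. Arterial endothelium then carries ephrin B2, the product of *Efnb2*, while venous endothelium carries its receptor EPHB4. *Gja4* and *Gja5* encode connexin 37 and connexin 40, the gap junction proteins that couple arterial endothelial cells to each other and to the smooth muscle around them. *Jag1* is used outside endothelium too, by vascular smooth muscle among other cells.

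After the filters, 6500 NOD/ShiLtJ and 7014 CD1 barcodes were kept, with a median of 5719.5 and 6495 UMIs, and the libraries shared 18 barcode sequences, 1 of them endothelial. The endothelial gate took 1526 NOD/ShiLtJ barcodes (23.5% of those kept) and 2895 CD1 barcodes (41.3%). Endothelial genes alone did not make a barcode endothelial, however. When the gated barcodes were clustered, without the 10 genes and without the 3 pathway lists described further on, 566 of the NOD/ShiLtJ barcodes (37.1%) and 306 of the CD1 barcodes (10.6%) fell into clusters led by genes of other lineages. These were mainly a B cell cluster (257 and 13 barcodes) and a cluster of mixed T and NK cell genes (246 and 95), in which T cell markers summed to 2024 CPM and NK markers to 1960 CPM in NOD/ShiLtJ. At a finer clustering it parted into a T cell cluster of 175 and 25 and an NK cell cluster of 71 and 70 barcodes. A macrophage cluster held 18 and 111 barcodes, and one led by the duct and acinar genes *Klk1*, *Crisp3* and *Mucl2*, with 3 of 8 macrophage markers raised, held 16 and 62. They held 6333497 of the 11878172 UMIs in the NOD/ShiLtJ gate and 4504862 of 22742931 in the CD1 gate. In the NOD/ShiLtJ B cell cluster *Pecam1*, which leukocytes also use, gave 95.4% of the gating UMIs, against 51.0% in the endothelial clusters. Of these barcodes 20.8% in NOD/ShiLtJ and 59.5% in CD1 were among the highest doublet scores of their library, against 0.94% and 2.51% of the barcodes in endothelial clusters. At the edge of the gate, the 10 genes summed to 70.7 CPM (the genes' share of all UMIs of the class, times 1000000) in the 238 NOD/ShiLtJ barcodes with exactly 3 gating UMIs and to 75.0 CPM in the 472 barcodes with 2. The same sums were 242 CPM (139 barcodes) and 151 CPM (203 barcodes) in CD1, whereas in the endothelial clusters they reached 1209 CPM in NOD/ShiLtJ and 1287 CPM in CD1. Strain differences are therefore given for the whole gate and for the 960 NOD/ShiLtJ and 2589 CD1 barcodes of the endothelial clusters.

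The endothelial clusters were 6. One was capillary-like (335 NOD/ShiLtJ and 988 CD1 barcodes), led by *Car4*, *Rgcc* and *Gpihbp1*, with 4 of 9 capillary markers raised. One was arterial-like (168 and 442 barcodes), with 13 of 16 arterial markers raised. *Fbln5*, an elastic fibre gene, stood at 247 CPM in NOD/ShiLtJ and 176 CPM in CD1 arterial-like barcodes against 1.34 and 0.46 CPM in capillary-like ones. The capillary enzyme gene *Car4* stood at 48.0 and 66.4 CPM against 323 and 357 CPM. The other 4 were left unnamed: cluster 1 (167 and 537 barcodes, led by *Insr* and *Ivns1abp*), cluster 3 (140 and 278, led by *Kirrel3*, *Selp* and *Vwf*, with 2 of 9 venous markers raised), cluster 4 (92 and 278, with a median of 1415 UMIs, led by the acinar secretory genes *Mucl2*, *Prol1* and *Scgb1b27*) and cluster 8 (58 and 66, led by interferon-induced genes). In cluster 4 the barcodes with over 10% mitochondrial UMIs were 39.1% and 47.1%. The arterial-like cluster was 17.5% of the NOD/ShiLtJ endothelial clusters (interval 15.1 to 20.1) and 17.1% of the CD1 ones (15.6 to 18.6). These classes were found after the libraries were joined by anchors. Merged without anchors, the capillary-like cluster held 79 NOD/ShiLtJ and 1525 CD1 barcodes, and a cluster led by interferon-induced genes such as *Rsad2* and *Ifit1* held 621 and 341, so at most 79 of the 335 NOD/ShiLtJ capillary-like barcodes lay in the capillary-like cluster of that alternative. The arterial-like cluster held 143 and 423 barcodes there.

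**Figure D1:**
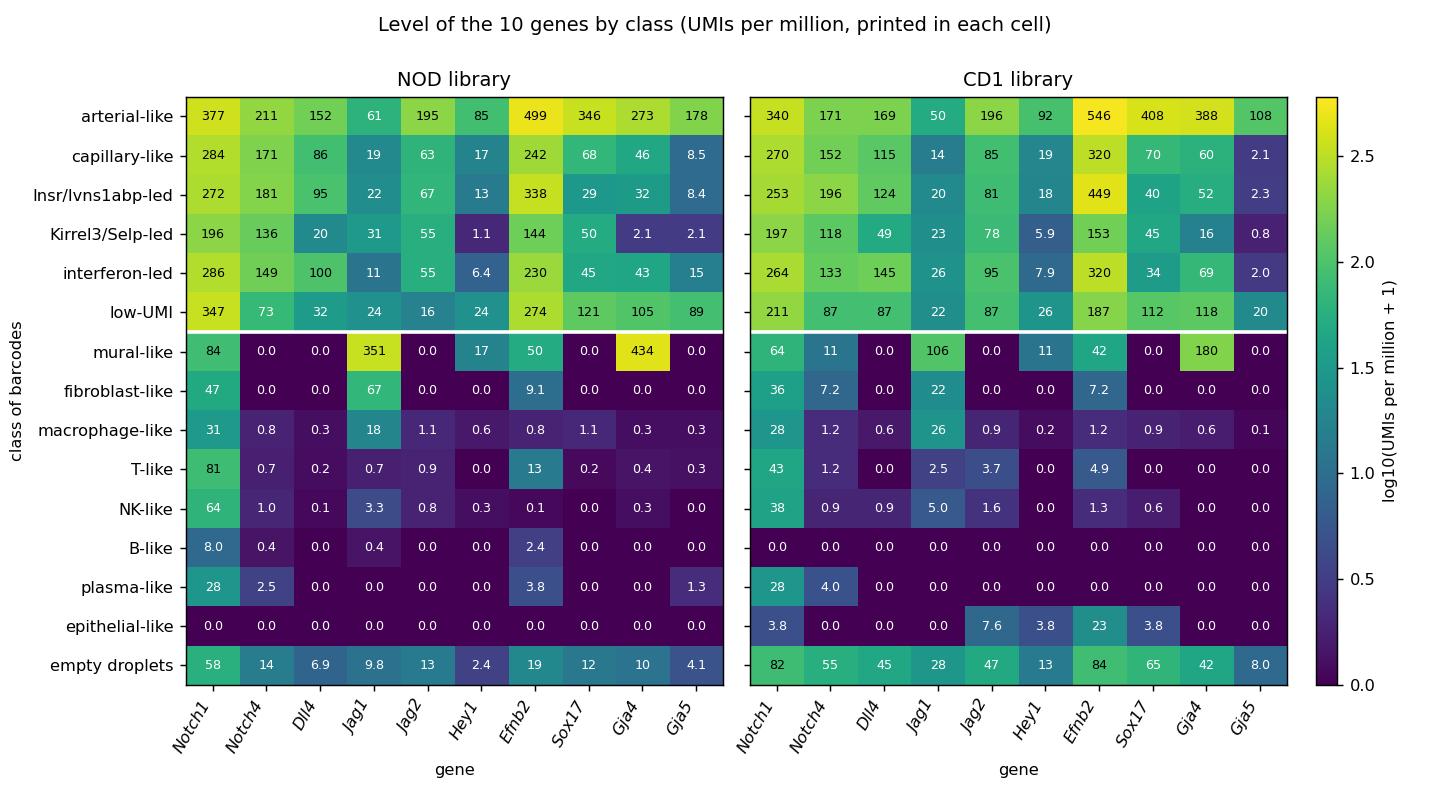
Level of each gene, in CPM of the class (colour, on a log scale), in the endothelial clusters, the other lineages and the empty droplets of the NOD/ShiLtJ and CD1 libraries. The arterial-like row is the brightest endothelial row for *Hey1*, *Sox17*, *Gja4* and *Gja5* in both libraries, and *Jag1* and *Gja4* reappear among mural-like barcodes.

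The 10 genes did not mark the arterial-like cluster to the same degree. Of the 10, 6 were at least 2-fold higher in arterial-like than in capillary-like barcodes in both libraries, namely *Jag1*, *Jag2*, *Hey1*, *Sox17*, *Gja4* and *Gja5*, with *Efnb2* on either side of the line. Of the 10139 genes with enough UMIs to compare, 2.3% passed the same limit. None of the 10 was 2-fold lower in both, as 1.83% of genes were. Their median log2 ratio was 1.58, against -0.06 for all genes. Cluster and level come from the same barcodes, so these ratios are a description. Among 6 endothelial clusters the arterial-like one had the highest level of all 10 genes in NOD/ShiLtJ and of 9 in CD1, the exception being *Notch4*. Its interval stood apart from the next cluster's for 5 and 7 genes. This order was counted for the 10 genes alone, with no share of all genes beside it, so it too is a description.

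The receptors differed little between arterial-like and capillary-like barcodes. *Notch1* stood at 377 CPM in NOD/ShiLtJ arterial-like barcodes (interval 341 to 415) and at 340 CPM in CD1 (319 to 362). Its capillary-like levels were 284 and 270.0 CPM, so the log2 ratio was 0.41 (0.22 to 0.59) in NOD/ShiLtJ and 0.33 (0.22 to 0.44) in CD1. *Notch1* UMIs were found in 81.5% and 81.0% of arterial-like and in 74.3% and 79.9% of capillary-like barcodes. *Notch4*, a receptor largely restricted to endothelium, was flatter still, at 211 and 171 CPM in arterial-like against 171 and 152 CPM in capillary-like barcodes, with log2 ratios of 0.30 (0.06 to 0.54) and 0.17 (0.02 to 0.32). Both were lower in cluster 3, where *Notch1* stood at 196 CPM in NOD/ShiLtJ and 197 CPM in CD1 and *Notch4* at 136 and 118 CPM. *Notch4* was lowest in the low-UMI cluster 4, at 72.6 and 87.3 CPM. In CD1 the highest *Notch4* level was in cluster 1, at 196 CPM. Of the 2 receptors, *Notch1* ranked 1315 and *Notch4* 2075 of 10139 genes by the mean log2 ratio of both libraries.

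The ligands split. *Dll4*, the endothelial ligand of the tip cell and the artery, was at 152 CPM in NOD/ShiLtJ and 169 CPM in CD1 arterial-like barcodes, and still at 85.7 and 115 CPM in capillary-like ones. The arterial excess in *Dll4* was 0.82 on the log2 scale (0.51 to 1.13) in NOD/ShiLtJ and 0.55 (0.40 to 0.71) in CD1, short of 2-fold in each. *Jag2* was at 195 and 196 CPM in arterial-like barcodes and at 63.3 and 84.5 CPM in capillary-like ones, with log2 ratios of 1.62 (1.31 to 1.94) and 1.21 (1.06 to 1.37). *Jag1* was low but differed as much, at 61.2 and 49.9 CPM against 19.2 and 14.1 CPM, for log2 ratios of 1.67 (1.10 to 2.26) and 1.82 (1.46 to 2.18). Free RNA held *Jag1* at 9.80 CPM in NOD/ShiLtJ and 28.5 CPM in CD1, above the CD1 capillary-like level. Outside the gate, CD1 NK-like barcodes held *Jag1* at 5.04 CPM and macrophage-like ones at 26.2 CPM. The part of free RNA in the capillary-like level was not tested. *Jag1* UMIs were present in only 15.5% and 17.2% of arterial-like barcodes, against 59.5% with *Jag2* in NOD/ShiLtJ. Cluster 3, led by *Selp* and *Vwf*, had the lowest *Dll4*, with 20.4 CPM in NOD/ShiLtJ and 49.3 CPM in CD1. The CD1 level was near that of free RNA, which held *Dll4* at 44.5 CPM in CD1 and 6.94 CPM in NOD/ShiLtJ.

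The target, the ephrin and the transcription factor were all highest in arterial-like barcodes. *Hey1*, a transcriptional repressor induced by Notch, rested on 90 UMIs in NOD/ShiLtJ (84.7 CPM) and 274 in CD1 (92.4 CPM), against 37 UMIs (16.5 CPM) and 160 UMIs (18.6 CPM) in capillary-like barcodes. Its log2 ratios were 2.36 (1.79 to 2.95) and 2.32 (2.03 to 2.61). Empty droplets held *Hey1* at 2.45 CPM in NOD/ShiLtJ and 13.1 CPM in CD1, not far below the CD1 capillary-like level. CD1 macrophage-like barcodes outside the gate held it at 0.22 CPM. *Efnb2* was high in both kinds of vessel, at 499 and 546 CPM in arterial-like and 242 and 320 CPM in capillary-like barcodes, so that its log2 ratio was 1.04 (0.87 to 1.22) in NOD/ShiLtJ and 0.77 (0.68 to 0.86) in CD1. *Efnb2* was lowest in cluster 3, at 144 and 153 CPM. *Sox17*, which encodes a SOXF-family factor, was at 346 and 408 CPM against 67.8 and 70.2 CPM, with log2 ratios of 2.35 (2.08 to 2.64) and 2.54 (2.40 to 2.68). Free RNA held *Sox17* at 12.04 CPM in NOD/ShiLtJ and 65.0 CPM in CD1 (interval 56.7 to 74.2), near the CD1 capillary-like level. The CD1 macrophage-like barcodes held *Sox17* at 0.89 CPM. How much free RNA added to the capillary-like levels of *Hey1* and *Sox17* was not tested. Arterial-like barcodes held 54.2% of all *Sox17* UMIs of the NOD/ShiLtJ gate and 52.9% of those of the CD1 gate, while holding 8.94% and 13.0% of all UMIs.

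The connexins set arterial-like barcodes apart most. *Gja4* stood at 273 CPM in NOD/ShiLtJ arterial-like barcodes (290 UMIs) and at 388 CPM in CD1 (1152 UMIs), against 45.5 and 59.8 CPM in capillary-like barcodes. Its log2 ratios were 2.59 (2.25 to 2.93) and 2.70 (2.55 to 2.85), rank 77 of 10139 genes. *Gja5* stood at 178 CPM (189 UMIs) and 108 CPM (320 UMIs) in arterial-like barcodes and at 8.48 CPM (19 UMIs) and 2.09 CPM (18 UMIs) in capillary-like ones. Its log2 ratios of 4.39 (3.71 to 5.16) and 5.69 (5.01 to 6.47) placed it at rank 22. In droplets with 10 to 100 UMIs, which sample free RNA, *Gja5* was at 4.08 CPM in NOD/ShiLtJ and 8.01 CPM in CD1. The CD1 capillary-like level lay below that value, while CD1 macrophage-like barcodes outside the gate held *Gja5* at 0.11 CPM. The part of free RNA in the capillary-like level was not tested. In empty droplets *Gja4* was at 10.4 and 42.1 CPM, above its level of 2.15 CPM (2 UMIs) and 15.7 CPM in the *Selp*- and *Vwf*-led cluster 3. The next highest levels of both connexins were in the low-UMI cluster 4, with *Gja5* at 88.7 CPM on 11 UMIs in NOD/ShiLtJ and at 20.3 CPM in CD1. After each barcode was thinned to 1000 UMIs, 14.5% of NOD/ShiLtJ and 9.3% of CD1 arterial-like barcodes kept a *Gja5* UMI, against 0.6% and 0.1% of capillary-like ones. The unthinned shares were 45.2% and 31.7% against 3.3% and 1.4%.

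The connexin promoters are shown because *Gja4* and *Gja5* share the arterial pattern and differ between the strains, with *Dll4* beside them as a gene that was high in capillaries too. The 250 bases before the annotated start are given 5′ to 3′ on the gene's strand, from RefSeq on GRCm38.p6. Capitals mark matches, on either strand, to TGGGAA (bound by RBPJ), ACAAAG (bound by SOX factors) or GGGCGG (the GC box). The regions are chr2:119325534-119325783 (plus strand) for *Dll4*, chr4:127314040-127314289 (minus strand) for *Gja4* and chr3:97032152-97032401 (plus strand) for *Gja5*.
Dll4: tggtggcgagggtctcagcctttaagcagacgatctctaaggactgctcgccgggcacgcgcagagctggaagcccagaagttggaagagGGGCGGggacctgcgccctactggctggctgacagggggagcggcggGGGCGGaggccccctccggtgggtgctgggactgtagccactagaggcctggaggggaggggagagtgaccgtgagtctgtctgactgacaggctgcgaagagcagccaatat
Gja4: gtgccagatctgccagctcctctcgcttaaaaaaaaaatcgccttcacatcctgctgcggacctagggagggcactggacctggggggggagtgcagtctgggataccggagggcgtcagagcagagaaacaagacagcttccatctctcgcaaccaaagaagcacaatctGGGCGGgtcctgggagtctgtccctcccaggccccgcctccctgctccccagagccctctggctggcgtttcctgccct
Gja5: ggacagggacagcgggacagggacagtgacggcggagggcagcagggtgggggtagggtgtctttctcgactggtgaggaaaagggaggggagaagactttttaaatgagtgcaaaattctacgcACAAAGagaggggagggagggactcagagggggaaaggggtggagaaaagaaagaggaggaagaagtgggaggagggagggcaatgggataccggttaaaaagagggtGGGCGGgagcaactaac
The sequence table held 8 of the 10 genes, all but *Hey1* and *Sox17*. TGGGAA was in none of the 8 windows, while 21.6% of 32851 promoters of that length held it. ACAAAG had 1 match, in *Gja5*, and 16.5% of promoters held it. The 8 windows were 56.4% (*Gja5*) to 87.2% (*Jag2*) G and C, above the median of 52.4% for all promoters. GGGCGG was in 6 of the 8, with 5 matches each in *Notch1* and *Jag2*, and 32.7% of promoters held it. A match is only these letters, and the absence of one says nothing of a factor's binding elsewhere.

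**Figure D2:**
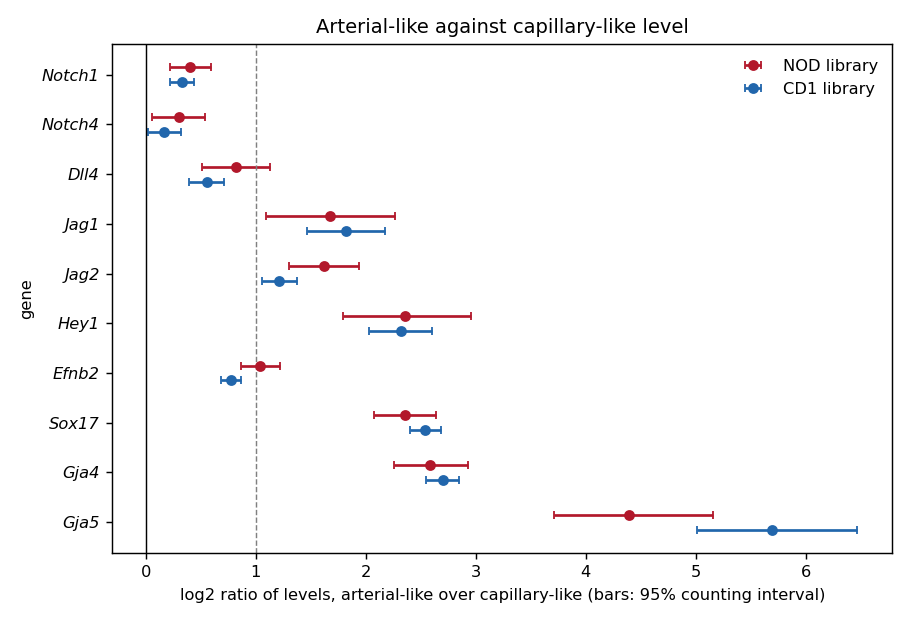
Log2 ratio of the level in arterial-like over capillary-like barcodes for each gene in the NOD/ShiLtJ and CD1 libraries, with 95% counting intervals. Both libraries run from near 0 for the receptors (*Notch4*, 0.30 and 0.17) up to the connexins (*Gja5*, 4.39 and 5.69).

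The genes were seen together in single barcodes. A median of 6 of the 10 had a UMI in an arterial-like barcode in each library, against 3 in NOD/ShiLtJ and 4 in CD1 capillary-like barcodes, whose median UMI totals were 5834 and 7472.5 against 5976.5 and 5983.5 in arterial-like ones. At least 5 of the 10 were detected in 68.5% of NOD/ShiLtJ and 72.9% of CD1 arterial-like barcodes and in 25.7% and 38.3% of capillary-like ones. Most *Gja5*-positive arterial-like barcodes also held *Gja4* (77.6% in NOD/ShiLtJ and 90.7% in CD1), beside 62.5% and 73.1% of all arterial-like barcodes. The reverse was less complete, since of barcodes with *Gja4*, 59 of 105 (56.2%) held *Gja5* in NOD/ShiLtJ and 127 of 323 (39.3%) in CD1. The overall shares with *Gja5* were 45.2% and 31.7%. Of *Dll4*-positive arterial-like barcodes 14.1% and 16.7% had *Jag1*, near its overall shares of 15.5% and 17.2%, and of *Jag1*-positive ones 42.3% and 53.9% had *Dll4*, near its overall shares of 46.4% and 55.7%.

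At a finer clustering the arterial-like barcodes fell into 2 groups that used the genes differently. One, led by *Mgp* and *Fbln5* and with 15 of 16 arterial markers raised, had 103 NOD/ShiLtJ and 209 CD1 barcodes. The other, led by *Glul* and *Tgfb2* and with 6 of 16 raised, had 64 and 225. The *Mgp*-led cluster was 61.7% of NOD/ShiLtJ arterial-like barcodes (interval 53.8 to 69.1) and 48.2% of CD1 ones (43.4 to 53.0). In the NOD/ShiLtJ library 62 *Jag1* UMIs lay in the *Mgp*-led and 3 in the *Glul*-led cluster, and the log2 ratio of the *Mgp*-led over the *Glul*-led level was 3.87 in NOD/ShiLtJ and 2.09 in CD1. For *Gja5* the ratios were 1.62 and 2.45, for *Jag2* 0.96 and 0.99 and for *Sox17* 0.86 and 0.84. *Gja4* was closer to even, at 0.59 and 0.48. The receptors, *Dll4* and *Efnb2* lay within 0.29 of 0 in both libraries. *Hey1* was 1.04 in NOD/ShiLtJ and 0.12 in CD1.

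**Figure D3:**
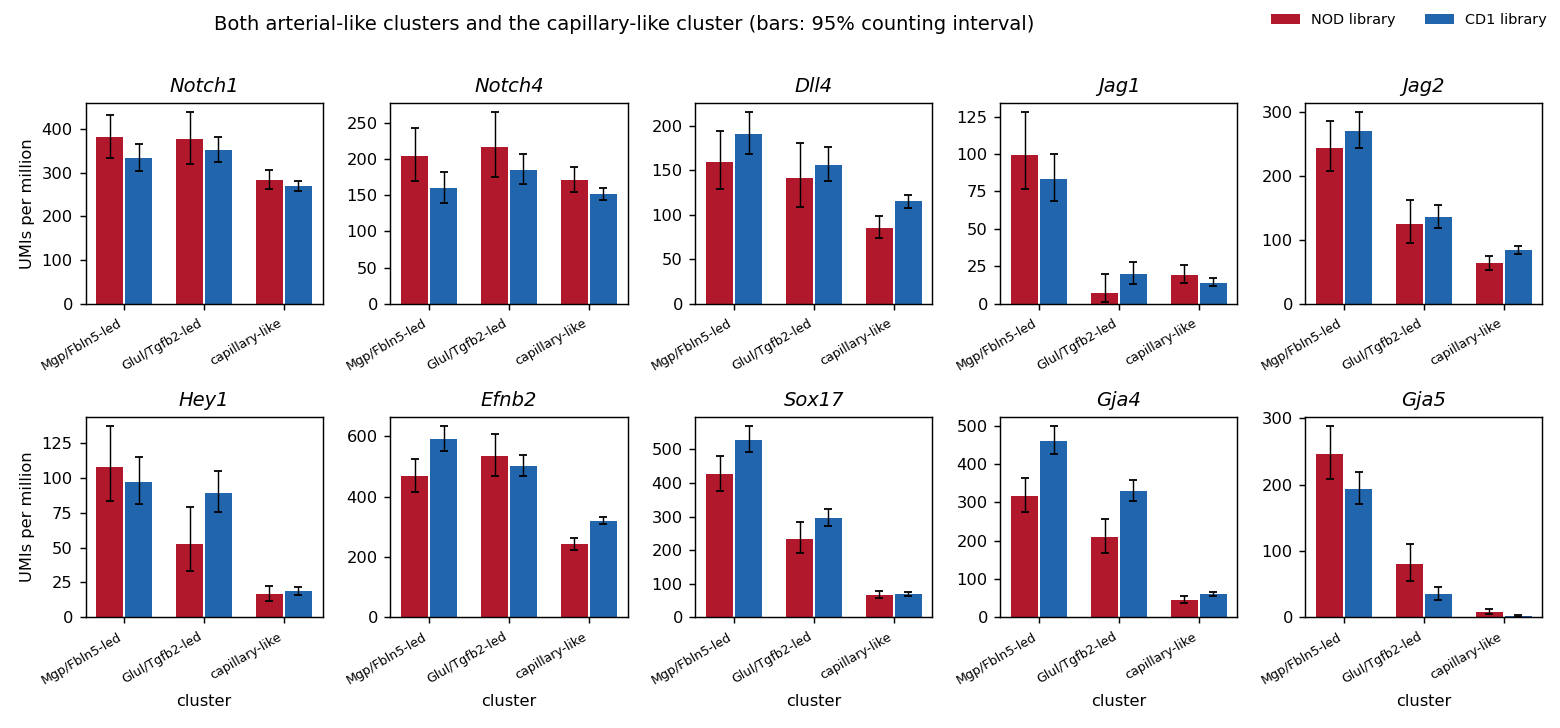
Level of each gene, in CPM with 95% counting intervals, in the *Mgp*-led and *Glul*-led arterial-like clusters and the capillary-like cluster of each library. *Jag1* and *Gja5* are lower in the *Glul*-led than in the *Mgp*-led cluster of both libraries. *Notch1*, *Notch4*, *Dll4* and *Efnb2* are close to level between these arterial-like clusters.

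Across the whole endothelial gate most of the 10 genes were lower in NOD/ShiLtJ than in CD1. Of the 10, 7 were at least 1.5-fold lower, where 14.3% of 16301 genes were, and 0 were at least 1.5-fold higher, where 24.6% of genes were. The log2 ratios of NOD/ShiLtJ over CD1 ran from -1.22 for *Gja4* and -1.12 for *Dll4* through -0.82 for *Sox17* to 0.38 for *Gja5*, with a median of -0.86 against 0.10 for all genes. The gate included the other-lineage clusters, which held 37.1% of NOD/ShiLtJ and 10.6% of CD1 gated barcodes. In those clusters *Gja4* was at 5.53 CPM in NOD/ShiLtJ and 44.0 CPM in CD1.

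Within the endothelial clusters the picture differed. No gene of the 10 was 1.5-fold lower in NOD/ShiLtJ, as 8.83% of 13869 genes were, and 1, *Gja5*, was 1.5-fold higher, as 14.7% were. The median log2 ratio of the 10 was -0.10, against 0.06 for all genes. *Notch1* was at 287 CPM in NOD/ShiLtJ and 266 CPM in CD1, a log2 ratio of 0.11 (0.03 to 0.19), and *Notch4* at 170 and 155 CPM, a ratio of 0.13. These 2 receptors had ratios of -0.49 and -0.63 over the whole gate, so the sign turned. *Dll4* remained below CD1, at 88.6 and 116 CPM with a log2 ratio of -0.39 (-0.54 to -0.25), as did *Efnb2* (-0.29) and *Jag2* (-0.24). Their free RNA was also lower in NOD/ShiLtJ, at 6.94 against 44.5 CPM for *Dll4*. It was 18.8 against 83.7 CPM for *Efnb2* and 12.9 against 47.2 CPM for *Jag2*. The part of free RNA in these ratios was not tested. *Jag1* was at 29.0 and 22.8 CPM, a ratio of 0.35 (0.08 to 0.61), against -0.34 over the whole gate, and its CD1 level lay below the free RNA level of 28.5 CPM. The intervals of *Hey1* (-0.15, from -0.43 to 0.12) and *Sox17* (-0.05) included 0. RNA of other lineages also differed between the endothelial clusters of the libraries. The summed T cell markers were at 30.3 CPM in NOD/ShiLtJ and 1.10 CPM in CD1, NK markers at 25.6 and 6.69, macrophage markers at 25.2 and 40.1 and mural markers at 10.1 and 17.3 CPM. Of these markers 0 of 8 T cell and 0 of 7 NK genes were at 0 in either library, 1 of 8 macrophage genes was in NOD/ShiLtJ, and 6 of 10 mural genes were in NOD/ShiLtJ and 1 in CD1. Their part in these ratios was not tested.

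The connexins went opposite ways. *Gja5* was at 42.2 CPM in NOD/ShiLtJ and 19.6 CPM in CD1 endothelial clusters (234 and 358 UMIs), a log2 ratio of 1.10 (0.86 to 1.35), whereas *Gja4* was at 81.2 and 108 CPM, a ratio of -0.41 (-0.56 to -0.26). In arterial-like barcodes alone the ratios were 0.72 for *Gja5* and -0.51 (-0.70 to -0.32) for *Gja4*, beside 10.5% of genes that were 1.5-fold higher and 10.8% lower there. The intervals of *Dll4* (-0.16) and *Jag2* (-0.01) included 0 there, while *Sox17* was slightly lower (-0.24, from -0.41 to -0.07) and *Notch4* higher (0.30). In capillary-like barcodes *Dll4* (-0.43), *Jag2* (-0.42), *Efnb2* (-0.40) and *Gja4* (-0.40) were lower. Free RNA of each of these genes was also lower in NOD/ShiLtJ (*Gja4*, 10.4 against 42.1 CPM), and its part was not tested. At the 1.5-fold limit 0 of the 10 were lower and 1 was higher in capillary-like barcodes, beside 10.3% and 14.6% of genes. *Gja5* had a ratio of 2.02 (1.01 to 3.04) there from 19 and 18 UMIs, near or below the free RNA level.

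For each 100 *Gja4* UMIs, the endothelial clusters held 52 *Gja5* UMIs in NOD/ShiLtJ and 18.2 in CD1, an odds ratio of 2.85 (2.34 to 3.48). This measure needs no scaling by library, since both connexins are counted in the same barcodes. It was not among the planned comparisons, and it pairs genes whose levels went opposite ways above. In arterial-like barcodes the values were 65.2 and 27.8, an odds ratio of 2.35 (1.87 to 2.94). The split into 2 arterial-like clusters gave the same direction in each. The *Mgp*-led cluster held 77.7 and 42.1 *Gja5* UMIs per 100 *Gja4* UMIs (odds ratio 1.84, from 1.42 to 2.40) and the *Glul*-led cluster 38.0 and 10.7 (3.53, from 2.13 to 5.82). At the 1.5-fold limit 0 of the 10 genes were lower and 0 higher in the *Mgp*-led cluster, beside 12.9% and 11.1% of all genes. In the *Glul*-led cluster 3 were lower, namely *Gja4*, *Hey1* (-0.77) and *Jag1* (on 3 and 32 UMIs), and 1, *Gja5*, was higher, beside 14.1% and 12.6%. By level, *Gja5* was at 246 CPM in NOD/ShiLtJ and 194 CPM in CD1 *Mgp*-led barcodes, a log2 ratio of 0.34 (0.05 to 0.63), under 1.5-fold. *Gja4* was at 317 and 461 CPM there, a ratio of -0.54 (-0.78 to -0.31). In *Glul*-led barcodes *Gja5* was at 79.8 and 35.4 CPM (1.17, from 0.52 to 1.80) and *Gja4* at 210 and 329 CPM (-0.65, from -0.99 to -0.33). The *Mgp*-led cluster, where *Gja5* was higher, was the larger share of the NOD/ShiLtJ arterial-like barcodes. The part of this mix in the *Gja5* ratio of all arterial-like barcodes was not tested.

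**Figure D4:**
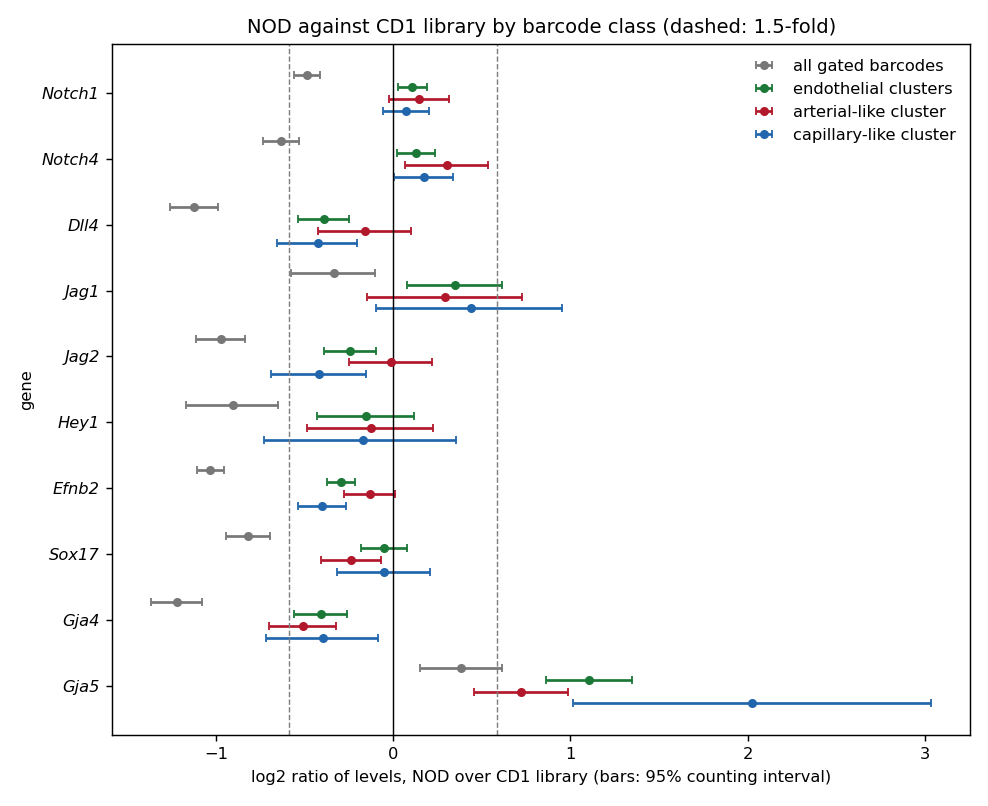
Log2 ratio of the level in NOD/ShiLtJ over CD1 for each gene, with 95% counting intervals, in the whole gate and in its endothelial, arterial-like and capillary-like clusters. Most genes lie below 0 in the whole gate and near 0 in the endothelial clusters, *Gja5* lies above 0 throughout and *Gja4* below 0 throughout.

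Barcodes outside the gate had fewer than 3 gating UMIs by definition, so the levels there are a description. In the named other lineages outside the gate, summed, *Jag1* was at 5.70 CPM in NOD/ShiLtJ and 21.6 CPM in CD1. *Notch1* was at 59.9 and 29.3 CPM, and no other gene of the 10 was above 6.45 CPM (*Efnb2* in NOD/ShiLtJ). Mural-like barcodes, the pericytes and smooth muscle cells of the vessel wall, held *Jag1* at 351 CPM in NOD/ShiLtJ (21 UMIs in 13 barcodes) and 106 CPM in CD1 (10 UMIs in 8 barcodes). Fibroblast-like barcodes of NOD/ShiLtJ held it at 67.3 CPM (37 UMIs, 42 barcodes), and macrophage-like barcodes at 17.9 and 26.2 CPM, where free RNA stood at 9.80 and 28.5 CPM. *Gja4* was also found in mural-like barcodes, with 26 UMIs (434 CPM) in NOD/ShiLtJ and 17 UMIs (180.0 CPM) in CD1, while *Gja5* had 0 UMIs in mural-like, fibroblast-like, NK-like and B-like barcodes of both libraries. In the few mural-like barcodes the Poisson interval of that count still reached 61.6 CPM in NOD/ShiLtJ and 39.1 CPM in CD1. The 26 *Gja4* UMIs of NOD/ShiLtJ lay in 6 of its 13 mural-like barcodes. Among the highest doublet scores of their library were 84.6% of the NOD/ShiLtJ and 25% of the CD1 mural-like barcodes. *Notch1* was at 80.8 and 43.0 CPM in T-like barcodes and at 30.9 and 27.8 CPM in macrophage-like ones, with free RNA at 57.8 and 82.2 CPM. *Efnb2* in NOD/ShiLtJ T-like barcodes was at 12.8 CPM, from 155 UMIs in 67 of 2051 barcodes (3.27%). It was at 0.14 CPM in NK-like and 0.83 CPM in macrophage-like barcodes of that library, and at 18.8 CPM in its empty droplets.

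The wider pathway was followed in 3 lists. Of 38 other Notch pathway genes, 30 could be compared between strains in the endothelial clusters, 2 of them at least 1.5-fold lower in NOD/ShiLtJ and 4 higher, with a median log2 ratio of 0.16. Of all genes 8.83% were lower and 14.7% higher there, shares close to those of the list. *Hey2*, a relative of *Hey1* known for its place in arterial fate, had 5 UMIs in NOD/ShiLtJ and 131 in CD1, a log2 ratio of -2.99 (-4.64 to -1.73). *Nrarp*, a feedback inhibitor induced by Notch, was at 28.9 and 52.4 CPM (-0.86). The receptor *Notch2* was at 9.92 and 3.56 CPM, a ratio of 1.48 (0.93 to 2.02). *Lfng*, a glycosyltransferase that alters the response of the receptors to their ligands, was at 52.3 and 29.4 CPM (0.83). *Maml2* (0.61), a coactivator gene, and *Numbl* (0.60, on 18 and 39 UMIs) completed the 4. *Lfng*, *Maml2* and *Numbl* were named after their values were seen.

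Between vessel types, 28 of the Notch pathway genes could be compared and 0 were past 2-fold in both libraries in either direction. *Lfng* was lower in arterial-like than in capillary-like barcodes, with log2 ratios of -1.50 in NOD/ShiLtJ and -0.99 in CD1. *Nrarp* went opposite ways, at 47.1 CPM in arterial-like against 24.5 CPM in capillary-like barcodes of NOD/ShiLtJ (0.94, from 0.36 to 1.52) and at 32.4 against 61.9 CPM in CD1 (-0.94, from -1.26 to -0.62). Of 21 other arterial genes 19 could be compared, and 2 were at least 2-fold higher in both, the transcription factor *Mecom* (2.61 and 2.96) and the netrin receptor *Unc5b* (1.05 and 1.19). Of 6 venous genes, 2 were 2-fold lower and none higher, with a median of -1.05. These were the apelin receptor *Aplnr* (-3.50 and -2.91) and *Nr2f2* (-2.22 and -1.38), which encodes COUP-TFII, a factor that represses Notch genes in veins.

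In the endothelial clusters 20 of the 21 arterial genes could be compared, 1 lower and 1 higher in NOD/ShiLtJ, where 11 were lower across the whole gate. Of all genes 8.83% were lower and 14.7% higher in the endothelial clusters and 14.3% were lower across the gate. The lower gene was *Cxcr4*, a chemokine receptor used by arterial and tip cells (-0.82), and the higher one *Mecom* (0.70). *Cxcr4* was at 14.1 CPM in NOD/ShiLtJ arterial-like barcodes (15 UMIs) and 55.6 CPM in CD1 (165 UMIs), a log2 ratio of -1.98 (-2.85 to -1.21). Of the venous genes 0 of 6 passed in either direction in the endothelial clusters and 4 were lower across the gate. In arterial-like barcodes 2 of the 6 were lower, beside 10.8% of all genes. These were *Aplnr* (-0.91), at 12.2 and 22.9 CPM, and the semaphorin receptor *Nrp2* (-0.70), at 65.0 and 106 CPM.

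Genes whose levels followed the members most closely were sought over 25 cell classes and vessel clusters of both libraries, which share depth and free RNA within a library. Over 12391 genes, *Gja5* was followed by *Edn1*, the endothelin gene (Pearson's r of 0.97 on the log2 scale), *Sema3g* (0.94) and *Dkk2* (0.90). *Sox17* was followed by *Clu* (0.98), *Ptprr* (0.97) and *Efhd1* (0.97). *Edn1*, *Sema3g*, *Dkk2* and *Clu* were among the markers that named the arterial-like cluster. *Jag1* had weaker partners, *Igfbp4* (0.91), *Pkd2* (0.90) and *Smo* (0.89), and *Notch4* was followed by the endothelial genes *Pcdh17*, *Ushbp1* and *Afap1l1*, the least of them at 0.995.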

How the data were processed

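The authors deposited raw UMI counts for every droplet barcode of 1 library per strain. The submitters' processing notes name Cell Ranger 8.0.0, Seurat 5.0.1, R 4.3.1 and the genome build GRCm39, and the deposited counts are unfiltered. The digestion is given as collagenase, hyaluronidase and dispase in the methods and as Liberase and dispase in the labels. The members and lists were chosen with earlier results of these data known.

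Barcodes with at least 500 UMIs and 300 genes were kept, with no mitochondrial limit (10% as an alternative). The library totals were 52790319 UMIs (NOD/ShiLtJ) and 56483149 (CD1). Clusters were made in Seurat 5.3.0 on R 4.3.3 (2000 features, anchors over 30 dimensions, resolution 0.5), without the members and list genes. No doublets were removed, and an alternative left out the highest Scrublet scores (scanpy 1.11.5), 0.8% per 1000 barcodes. UMIs were summed per class in Python 3.11.15 (scipy 1.17.1) and scaled to CPM. Levels carry exact Poisson intervals, ratios exact conditional binomial intervals and shares Clopper-Pearson intervals. A gene was compared with at least 20 UMIs, over both libraries for strain and in each library for vessel type. A difference counted at 1.5-fold between strains and at 2-fold in both libraries between vessel types, with no test. Of the 10 members all were named, and of each list the 2 or 3 genes furthest from 0 in the comparison described, and a few more that the text marks as named after their values were seen. Scripts were tested on simulated data. Promoter sequences were taken from RefSeq on GRCm38.p6, another build than the counts.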

Additional observations from a re-analysis of the deposited data

How the results depend on the processing

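No paired analysis was possible because there was 1 library per strain and no result came from a test. The 6 genes at least 2-fold higher in arterial-like barcodes stayed 6 under every alternative that gave a value, except when barcodes with 3 or more UMIs of any other-lineage marker were left out. That rule left so few barcodes that only 1 member could be compared, and the count was 0. At a resolution of 1.0 no capillary-like cluster was found, so that alternative gave no value. The 7 genes lower in NOD/ShiLtJ across the gate depended on which barcodes it held. They became 4 lower and 2 higher when those barcodes with other-lineage markers were left out, 1 and 1 when CD1 clusters were weighted by NOD/ShiLtJ shares, and 0 and 1 in the endothelial clusters, with or without the low-UMI cluster. Leaving out barcodes by only those markers under 50 CPM in endothelium also gave 0 and 1, and a gate of 5 UMIs gave 1 higher. Under the other alternatives 5 to 8 genes were lower. The last alternatives on endothelial clusters and markers were added after seeing the data. Signs turned for *Hey1* (0.73) and *Sox17* (0.18) under the stricter marker rule, and for *Notch4* (0.010 with weighted clusters and 0.13 in the endothelial clusters). *Notch1* (0.11) and *Jag1* (0.35), under 1.5-fold across the gate, also turned in the endothelial clusters. Within arterial-like barcodes the *Mgp*-led cluster alone had 0 genes 1.5-fold lower and 0 higher, and the *Glul*-led one 3 lower and 1 higher. Merging without anchors put the NOD/ShiLtJ arterial-like share at 14.9% and the CD1 share at 16.3%. Scaling by the median of ratios left 2 Notch pathway genes higher and 3 arterial genes lower. Of the values of single genes under the alternatives fixed at the start, 284 stayed within their counting interval, 89 moved beyond it and 3 with a 1.5-fold or larger difference turned sign. Causes of these shifts were not tested. In NOD/ShiLtJ, *Hey2* in the endothelial clusters and *Jag1* in the *Glul*-led cluster rested on few UMIs.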
